A study of Homo sapiens with 4 samples.

Results

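Gene expression after 24 h of culture with platelet-like particles was set against that of cells given Pam3CSK4 alone, in the human line THP-1. The difference was taken for each gene between a pair of arrays, as the log2 value at 24 h minus the log2 value with Pam3CSK4. A gene was read from its brightest probe set, a group of short array probes that reads part of 1 transcript, among the probe sets that name only that gene. It entered the comparison where that value reached 6.19, the median of all values on the arrays, on either of the arrays. This held for 12908 of 19775 genes, and 9 probe sets shared by near-identical globin genes were added. THP-1 is an established line grown from an acute monocytic leukaemia. Every co-cultured cell had also received Pam3CSK4, a synthetic bacterial-type lipopeptide that activates Toll-like receptor 2 together with Toll-like receptor 1, so the particles and the added time are what separates the arrays by label. The remaining arrays held untreated resting cells and cells co-cultured for 12 h. With 1 array for each of 4 conditions there is no replicate check and no test, and precision is limited by that number. The labels give neither the duration of treatment with Pam3CSK4 alone nor the cells that the particles came from, and the titles of the co-culture samples carry other hour numbers than their descriptions, which were followed here. Time in culture and contact with particles therefore cannot be told apart between these arrays.

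Platelets are shed by megakaryocytes as fragments without a nucleus that carry the RNA of their parent cell, and platelet-like particles are similar fragments made in culture. Haemoglobin genes are switched during development, from the embryonic epsilon chain to the fetal gamma chains and then to the adult beta chain, and monocytes are not known for expressing them. Monocytes that sense a bacterial lipopeptide release chemokines, small proteins that draw neutrophils and other monocytes. RNA of particles bound to or lying among the cells and RNA made by the THP-1 cells are read together on such an array, and in a bulk sample fewer cells of a type and less RNA per cell cannot be told apart.

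The arrays differed little. Of the kept genes, 12555 (97.3%) differed by less than 0.322 on the log2 scale, a limit used below for small differences, the median difference was -0.0058 on the log2 scale, and a robust estimate of the spread over all genes was 0.119. At least 1.5-fold higher at 24 h were 20 genes (0.155% of those compared) and at least 1.5-fold lower was 1 gene (0.00775%). At 2-fold the numbers were 3 (0.0232%) and 0 (0%), and at 0.322 they were 256 (1.98%) and 97 (0.751%). Measured in the same way against the same Pam3CSK4 array, 12 h of co-culture gave 256 genes at least 1.5-fold higher (1.95% of 13129) and 374 at least 1.5-fold lower (2.85%). Pam3CSK4 against resting cells gave 995 higher (7.57% of 13139) and 790 lower (6.01%). The spread was wider for dim genes: with genes split into 4 equal groups by mean level it was 0.146 in the dimmest, which held 13 of the 20 higher genes and the lower gene, and 0.102 in the brightest, which held 2. The last genes inside the 1.5-fold limit were CRIM1 at 0.619, LINC01088 at 0.589 and CXCL8 at 0.586, and the first outside it were SPP1 at 0.581, MMP1 at 0.562 and ACSL4 at 0.561. On the lower side MTA2 lay inside at -0.630 and SLC28A1 outside at -0.500.

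**Figure D1:**
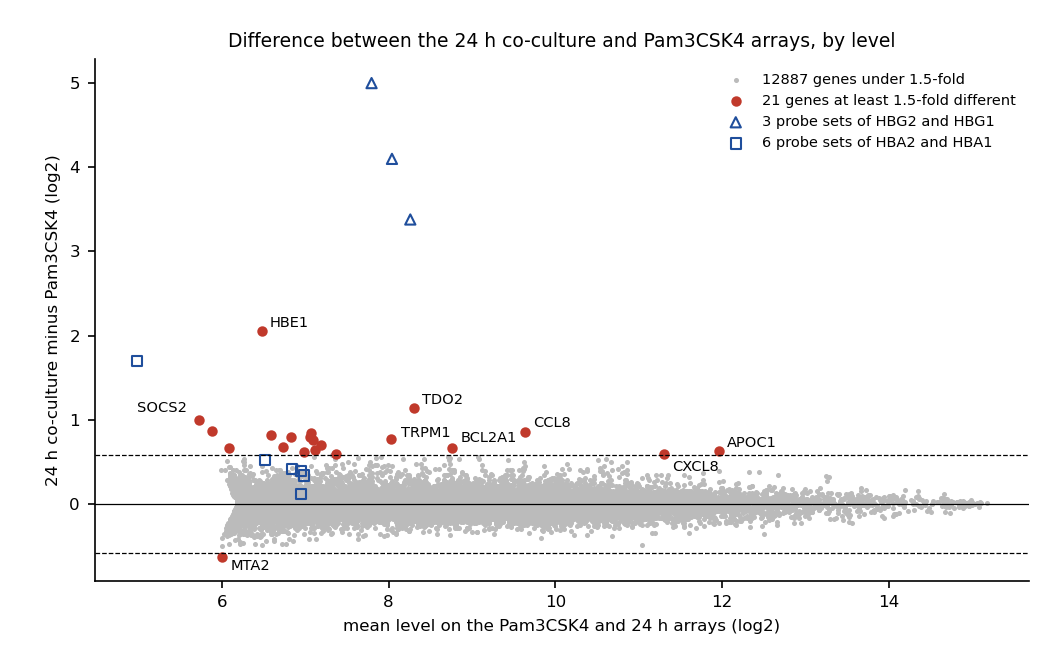
Mean level of each kept gene on the Pam3CSK4 and 24 h arrays (log2, horizontal) against its value at 24 h minus its value with Pam3CSK4 (log2, vertical), 1 filled point a gene, with some of the genes past 1.5-fold named. Open markers are probe sets shared by HBG1 and HBG2 or by HBA1 and HBA2. Most points lie close to 0, and 13 of the 20 genes above the upper line belong to the dimmest of 4 equal groups of genes.

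The fetal globin signal stood farthest from the rest. HBG1 and HBG2 encode the gamma chains of fetal haemoglobin, and their transcripts are so alike that 3 probe sets name both genes and none of them separates the pair. All 3 are of the _x_at kind, whose probes can also bind related transcripts. The probe set 213515_x_at read 5.01 in resting cells, 5.29 with Pam3CSK4, 9.33 after 12 h of co-culture and 10.30 after 24 h. The 204419_x_at values were 6.40, 5.99, 9.39 and 10.09 in the same order, and those of 204848_x_at were 6.85, 6.57, 9.20 and 9.95. All 3 probe sets were thus near the median of the array or below it without particles and high on both arrays with them, and each was highest at 24 h. The differences at 24 h were 5.0, 4.10 and 3.38, and they were 4.04, 3.39 and 2.62 at 12 h. Only 204848_x_at reached 6.19 with Pam3CSK4, so its 10.4-fold ratio is the one measured on both sides, whereas the ratios of 32.1-fold and 17.1-fold start from values under that level. Between the co-culture arrays these probe sets were higher by 0.96, 0.70 and 0.75 at 24 h.

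HBE1, the embryonic epsilon chain gene, was the single-gene entry with the largest difference among all kept genes. Its brightest probe set read 5.42 in resting cells, 5.45 with Pam3CSK4, 6.30 after 12 h of co-culture and 7.50 after 24 h. The arrays without particles were alike and low, 12 h lay between, and 24 h was highest, with a difference of 2.05 from Pam3CSK4, a 4.15-fold ratio taken from a value under the 6.19 level. A dimmer HBE1 probe set stayed between 3.97 and 4.18 and differed by 0.0085.

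The alpha chain genes HBA1 and HBA2, which serve both fetal and adult haemoglobin, share 6 probe sets. All 6 were higher at 24 h than with Pam3CSK4, by 0.12 to 1.70, and 1 of them passed 1.5-fold. That probe set read 4.25, 4.13, 5.39 and 5.83 in the order of resting, Pam3CSK4, 12 h and 24 h, so it was under 6.19 throughout. The brightest of the other 5 at 24 h, 209458_x_at, read 6.73, 6.75, 6.85 and 7.15. HBB, the adult beta chain gene, differed by -0.15 to 0.0097 over 4 probe sets, and HBD, the minor adult delta chain gene, by -0.12. HBM, HBQ1 and HBZ, other genes of the alpha cluster, differed by 0.26, -0.0097 and -0.23, all from values under 6.19. In all, 5 of 19 globin probe sets, counted at any level, were at least 1.5-fold higher: those of the gamma pair, 1 of HBE1 and 1 of the alpha pair. The alpha probe set among them was under the filter level on both arrays compared. Of all 27781 probe sets at the filter level, 65 were at least 1.5-fold higher. Over the 2 globin genes that had a measured probe set of their own, HBE1 and HBB, the median difference was 1.03, against -0.0058 over all genes. It rested on HBE1. With no filter on level 6 globin genes entered and the median was -1.5e-05, and with probe sets averaged per gene HBE1 was under the filter and HBB alone gave -0.078.

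**Figure D2:**
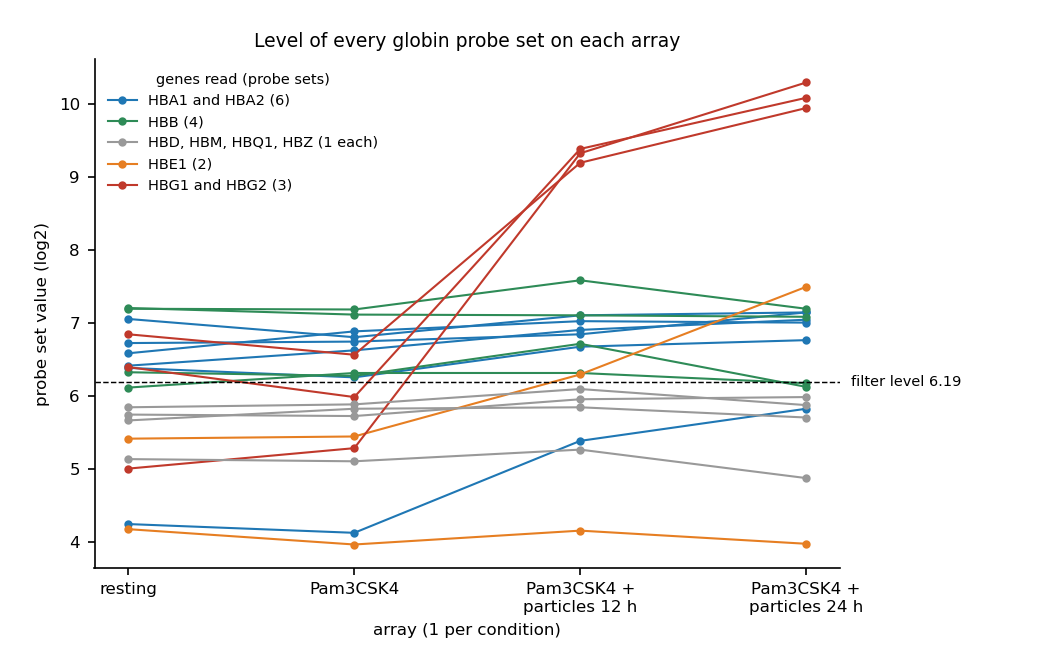
Level of globin probe sets (log2) on the resting, Pam3CSK4, 12 h and 24 h arrays, 1 line a probe set, with the 6.19 filter level dashed. The 3 shared HBG1 and HBG2 lines lie between 5.29 and 6.57 with Pam3CSK4 and between 9.95 and 10.30 at 24 h, whereas the HBB lines end between 6.13 and 7.20.

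Other erythroid genes did not share the size of the gamma and epsilon differences. Of 30 listed genes of the red cell membrane and haem synthesis, 17 were measured. None reached 0.322 in either direction, 10 lay above 0 and the median was 0.047. CA1 and CA2, carbonic anhydrases abundant in red cells, marked the ends of that list: CA1 read 6.79, 6.78, 7.61 and 7.07 and differed by 0.29, and CA2 read 13.70, 13.06, 11.37 and 12.83 and differed by -0.22. Among erythroid and globin-switching regulators 12 of 16 were measured, none reached 0.322, and the median was 0.023. BCL11A, a repressor of the gamma genes, read 10.72, 11.32, 11.48 and 11.22, which is a difference of -0.096. ALAS2, SLC4A1, EPB42 and KLF1, which define late red cell precursors, were under 6.19 on both arrays, at 5.86, 5.42, 4.55 and 5.12 at 24 h.

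The defining platelet transcripts PF4 and PPBP were under 6.19 on all 4 arrays. PF4, platelet factor 4, read 5.89, 5.72, 5.95 and 5.97, and PPBP, the platelet basic protein, read 3.40, 3.65, 3.62 and 3.79. Of 10 megakaryocyte and platelet markers on the array, 4 reached 6.19 with Pam3CSK4 and 5 at 24 h. None differed by 1.5-fold, and the range was -0.12 to 0.26. Their levels added up before the log gave 9.35 with Pam3CSK4 and 9.45 at 24 h. In the longer list of 33 megakaryocyte and platelet genes, 16 were measured and 1 was at least 0.322 higher, against 1.98% of all kept genes. Above 0 lay 12 of the 16, against 47.7% of all kept genes. The list's median was 0.13, against -0.0058 over all kept genes. With a filter at the 75th percentile of levels the list's median was -0.0022. The gene at least 0.322 higher was THBS1, thrombospondin 1, which activated monocytes also make, at 3.32, 7.48, 8.79 and 7.83. The part of particle RNA in any of these differences was not tested.

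Listed chemokine genes, 16 of the 12908 genes compared, made up 3 of the 20 higher genes. CCL8, a chemoattractant for monocytes, read 4.65 in resting cells, 9.20 with Pam3CSK4, 11.50 at 12 h and 10.07 at 24 h. CXCL6, a chemokine for neutrophils, read 4.27, 6.18, 8.33 and 6.99, and CXCL8, known as interleukin 8, read 6.27, 11.01, 12.80 and 11.60. All 3 were lowest in resting cells and highest at 12 h, with 24 h between Pam3CSK4 and 12 h. Their differences at 24 h were 0.86, 0.82 and 0.59, and at 12 h they were 2.29, 2.16 and 1.79. A second CXCL8 probe set, dimmer on all arrays, differed by 0.61 at 24 h.

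Measured members of the neutrophil-attracting chemokine list numbered 5 of 7. Of these, 2 were at least 1.5-fold higher, against 0.155% of all kept genes, and 4 at least 0.322 higher, against 1.98%. None was lower, and the median was 0.52, against -0.0058 over all kept genes. CXCL1 read 5.49, 10.25, 11.79 and 10.77 and CXCL2 read 5.98, 8.47, 10.25 and 8.99. Both therefore followed the order of CXCL8, and each differed by 0.52. CXCL3 differed by 0.12. Of the other chemokines 11 of 24 were measured, with 1 at least 1.5-fold higher, 5 at least 0.322 higher, none lower by that amount, and a median of 0.062. After CCL8 these were CCL4 at 0.43, CCL2 at 0.39, CXCL10 at 0.38 and CCL20 at 0.36, and CCL19, a chemokine for lymphocytes and dendritic cells, lay at -0.15. CXCL10, which draws T cells, had its highest value at 24 h, with 5.36, 10.14, 10.41 and 10.52 over the arrays.

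The stretches before the transcription start of the 3 chemokine genes past 1.5-fold are shown because these genes were highest on the same array. They are the 250 bases upstream of the start, from RefSeq on GRCh38.p14, all on the plus strand: CCL8 at chr17:34319185-34319434, CXCL6 at chr4:73836428-73836677 and CXCL8 at chr4:73740319-73740568. Capitals mark TATAAA, the core of many promoters, GGAATTTCC, a form of the NF-kB motif, and TGANTCA, a form of the AP-1 motif in which N is any base, all searched on both strands. None of these motifs overlaps another in the windows shown.
CCL8: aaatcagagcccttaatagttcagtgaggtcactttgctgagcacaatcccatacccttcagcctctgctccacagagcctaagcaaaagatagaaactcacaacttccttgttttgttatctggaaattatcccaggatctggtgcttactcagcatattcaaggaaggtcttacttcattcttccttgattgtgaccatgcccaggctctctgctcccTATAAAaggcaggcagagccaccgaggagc
CXCL6: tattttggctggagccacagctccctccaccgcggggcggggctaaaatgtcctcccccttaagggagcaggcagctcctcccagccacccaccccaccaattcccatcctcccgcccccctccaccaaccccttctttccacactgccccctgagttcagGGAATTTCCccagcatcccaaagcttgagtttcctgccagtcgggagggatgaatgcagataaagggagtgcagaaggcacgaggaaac
CXCL8: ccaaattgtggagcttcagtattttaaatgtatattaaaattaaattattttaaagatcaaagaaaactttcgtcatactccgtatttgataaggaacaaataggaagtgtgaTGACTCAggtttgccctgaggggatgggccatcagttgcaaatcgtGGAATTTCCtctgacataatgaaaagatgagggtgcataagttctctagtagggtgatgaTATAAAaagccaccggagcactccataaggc
GGAATTTCC lies 89 to 81 bases before the start of CXCL6 and 91 to 83 bases before that of CXCL8. TATAAA lies 30 to 25 bases before the start of CCL8 and 31 to 26 bases before that of CXCL8, and TGANTCA lies 137 to 131 bases before that of CXCL8. Of 35116 windows of this length in the table, 10.7% hold TATAAA, 0.413% hold GGAATTTCC and 6.57% hold TGANTCA. Of the 16 measured chemokine genes 13 were in the table: 6 hold GGAATTTCC, namely CXCL1, CXCL2, CXCL3, CXCL6, CXCL8 and CXCL10, while 5 hold TATAAA and 1 holds TGANTCA. A match of letters is a description and shows no binding.

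Cytokine genes showed little of this. Of 26 listed, 16 were measured, 8 lay above 0 and the median was -0.0083. IL1B, an early inflammatory cytokine, read 6.83, 10.78, 11.56 and 10.79, so 24 h was level with Pam3CSK4, and TNF read 6.61, 9.80, 10.02 and 9.84. IL18, a cytokine of the inflammasome pathway, was the member past 0.322, at 6.84, 7.03, 7.24 and 7.40, which is a difference of 0.37. The NF-kB target and brake list had 19 measured members and a median of 0.027. Its member past 1.5-fold was BCL2A1, a survival protein of the BCL2 family that NF-kB induces. BCL2A1 read 4.08 in resting cells, 8.43 with Pam3CSK4, 9.44 at 12 h and 9.09 at 24 h, and both co-culture arrays were above Pam3CSK4, by 1.02 and 0.66. No other of the 14 measured BCL2 family genes passed 0.322, and their median was -0.041.

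TDO2, tryptophan 2,3-dioxygenase, opens the breakdown of tryptophan to kynurenine and is best known from liver. It read 5.56, 7.73, 9.20 and 8.87, so both co-culture arrays exceeded Pam3CSK4, by 1.47 at 12 h and 1.14 at 24 h. A dimmer TDO2 probe set, under 6.19 on every array, differed by 0.26 at 24 h. TDO2 was the only one of 10 measured tryptophan and kynurenine enzymes past 0.322. IDO1 and IDO2, which catalyse the same first step, differed by -0.049 and 0.032 and KYNU, kynureninase, by 0.022, and the list's median was -0.020.

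SOCS2, a feedback inhibitor of cytokine receptors that signal through JAK and STAT, read 6.72, 5.23, 6.35 and 6.23. The Pam3CSK4 array was thus lowest and resting cells highest, with both co-culture arrays between them. The 24 h difference of 1.0, a 2.01-fold ratio, starts from a value under 6.19. Dimmer SOCS2 probe sets, under 6.19 on every array, differed by -0.069 and -0.18. Among 28 measured genes of this signalling list SOCS2 was the only member past 0.322. CISH differed by -0.054, SOCS1 by 0.12, SOCS3 by 0.079, and the median was -0.019. ID1, an inhibitor of helix-loop-helix transcription factors, was likewise lowest with Pam3CSK4, at 7.18, 6.43, 7.21 and 7.23, and differed by 0.80. COL15A1, a collagen chain of basement membranes, read 7.30, 6.79, 7.65 and 7.44 and differed by 0.64.

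CCND2 and CDKN2A act at the same step of the cell cycle. CCND2 encodes cyclin D2, which starts the exit from G1, and CDKN2A encodes the inhibitor p16 of the kinases that D cyclins activate. CCND2 read 5.57, 5.44, 6.35 and 6.31 and CDKN2A read 6.50, 6.66, 7.46 and 7.46. For both genes the arrays without particles lay together below the co-culture arrays, and the 24 h differences were 0.87 and 0.80. A dimmer CCND2 probe set, under 6.19 on every array, differed by 0.64 and another by -0.047. Dimmer CDKN2A probe sets, also under 6.19 on every array, differed by 0.34 and -0.0075. The CDKN2A values above come from a probe set of the _x_at kind, whose probes can also bind related transcripts. Which transcript that probe set read in these cells was not tested. CCND3 differed by -0.27 and CCND1 by -0.047; both were looked up after the CCND2 value had been seen. Of 35 measured cell cycle and replication genes none reached 0.322, 11 lay above 0 and the median was -0.068.

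Lipid-handling macrophage genes had 1 member past 1.5-fold, beside 0.155% of all kept genes at least 1.5-fold higher. APOC1, an apolipoprotein secreted by macrophages, read 12.00 in resting cells, 11.65 with Pam3CSK4, 11.39 after 12 h and 12.28 after 24 h of co-culture. The 24 h array was the highest and the 12 h array the lowest, with differences from Pam3CSK4 of 0.63 and -0.27, and a second APOC1 probe set gave 0.47 and -0.30. Of 25 listed lipid-laden and tissue macrophage genes 20 were measured, and 5 were at least 0.322 higher, against 1.98% of all kept genes. None was lower by that amount, 18 lay above 0, against 47.7% of all kept genes, and the median was 0.14. SPP1, the secreted phosphoprotein osteopontin, read 4.43, 7.03, 6.67 and 7.61 and lay just under 1.5-fold. GPNMB, a lysosomal glycoprotein, differed by 0.50, TREM2, a lipid-sensing receptor, by 0.37, PLIN2, which coats lipid droplets, by 0.36, and MARCO, a scavenger receptor, by -0.19. TREM2 was highest in resting cells, at 12.12, 10.61, 11.55 and 10.98.

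**Figure D3:**
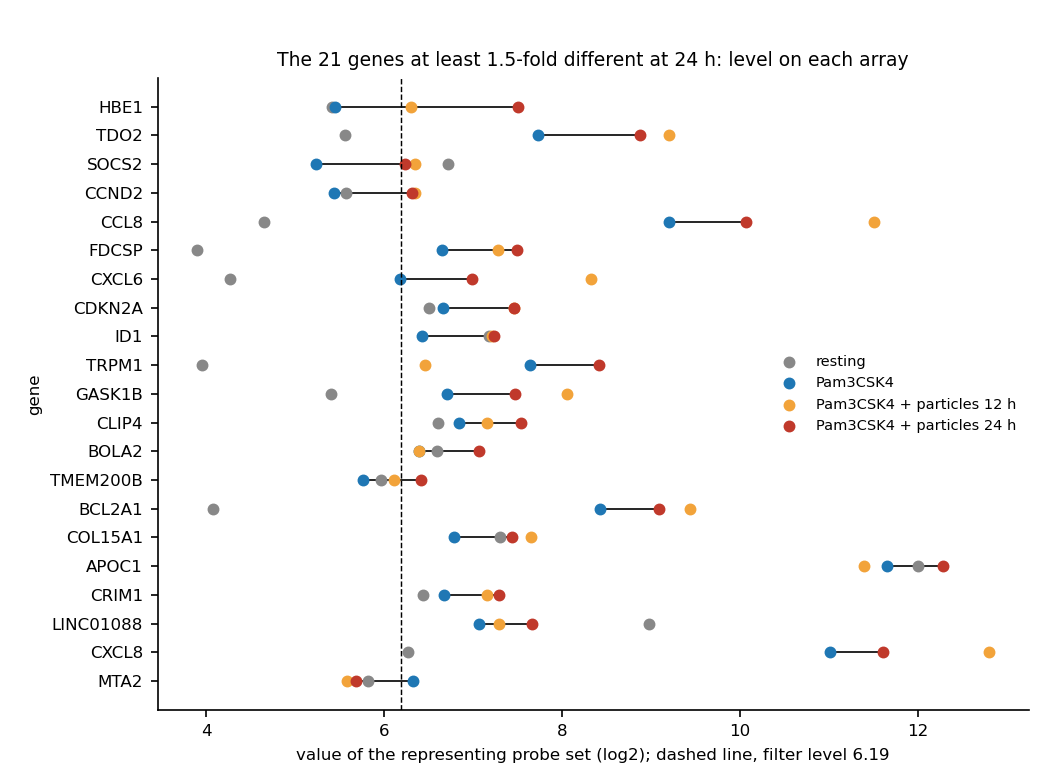
Level of the brightest probe set (log2, horizontal) of the 21 genes at least 1.5-fold different at 24 h, 1 row a gene and 1 point for each of the 4 arrays, with a line joining Pam3CSK4 to 24 h. The 24 h point is the highest for 10 of the 20 higher genes, the 12 h point for 8 and the resting point for 2.

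Of the remaining higher genes, several had low levels. FDCSP, a peptide secreted by follicular dendritic cells, read 3.90, 6.65, 7.28 and 7.49 and differed by 0.84. GASK1B, a Golgi-associated protein, read 5.40, 6.71, 8.06 and 7.47 and differed by 0.76, and TRPM1, a cation channel of the retina and of melanocytes, read 3.95, 7.64, 6.46 and 8.41. FDCSP and TRPM1 were thus highest at 24 h and GASK1B at 12 h, and TRPM1 alone among these lay below Pam3CSK4 at 12 h. The TRPM1 difference was 0.77 at 24 h, and its second measured probe set gave 0.24. CLIP4, a protein with domains that bind microtubules, read 6.61, 6.84, 7.16 and 7.54 and differed by 0.70. TMEM200B, a membrane protein, read 5.97, 5.76, 6.11 and 6.42 and differed by 0.67. CRIM1, a membrane protein that binds bone morphogenetic proteins, differed by 0.62 on its brightest probe set, at 6.44, 6.67, 7.16 and 7.29, and by 0.24 and 0.11 on others. LINC01088, a long non-coding RNA, was highest in resting cells, at 8.98, 7.07, 7.29 and 7.66, and differed by 0.59. BOLA2, an iron-sulphur cluster protein, read 6.59, 6.39, 6.39 and 7.07 and differed by 0.68. It has a near-identical genomic copy, so which copy was read is uncertain. Dimmer probe sets under 6.19 on both arrays compared differed by -0.13 for GASK1B, 0.077 for CLIP4 and -0.078 for BOLA2. Such probe sets differed by 0.26 and -0.15 for LINC01088 and by 0.17 and -0.096 for TRPM1.

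Of the 20 higher genes, 5 were under 6.19 with Pam3CSK4 (HBE1, SOCS2, CCND2, CXCL6 and TMEM200B), 11 stayed under 8 on all 4 arrays, and 4 were at 8 or more on both arrays compared, namely CCL8, BCL2A1, APOC1 and CXCL8. Only 4 had more than 1 probe set at the filter level, and in these all probe sets had 1 sign. CXCL8 was the 1 gene among them whose every such probe set passed 1.5-fold.

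The lower side held little. MTA2, a subunit of the NuRD chromatin complex, was the 1 gene at least 1.5-fold lower, at 5.82, 6.32, 5.58 and 5.69, so it reached 6.19 on the Pam3CSK4 array only. The 20 lowest genes whose other measured probe sets had the same sign differed by -0.63 to -0.41. All 20 were under 8 on both arrays, and 9 were under 6.19 at 24 h. After MTA2 came SLC28A1, a nucleoside transporter, at -0.50, LGALS4, a galectin of the gut lining, at -0.49, DYRK3, a protein kinase, at -0.48, IRF4, a transcription factor of lymphocytes and dendritic cells, at -0.48, and PTPRCAP, a partner of CD45, at -0.47. IRF4 read 6.20, 6.32, 6.43 and 5.84.

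Small differences ran mostly 1 way in several lists. Over all kept genes 1.98% were at least 0.322 higher, 47.7% lay above 0 and the median was -0.0058. Of 18 measured Toll-like receptor signalling genes 4 were at least 0.322 higher, none was lower by that amount, 14 lay above 0 and the median was 0.13. TLR4, the endotoxin receptor, read 7.35, 7.76, 8.0 and 8.22, and LY96, its co-receptor MD-2, read 5.99, 10.37, 10.71 and 10.81. Both were highest at 24 h, with differences of 0.46 and 0.45, and TLR5, the flagellin receptor, differed by 0.35. The receptors of Pam3CSK4 itself differed by 0.34 for TLR1 and -0.13 for TLR2, and TLR6, the partner of TLR2 for other lipopeptides, by -0.26. Of 35 interferon-stimulated genes 3 were at least 0.322 higher, 27 lay above 0, and the median was 0.11. These were the IFIT family genes IFIT5 at 0.46, IFIT3 at 0.42 and IFIT1 at 0.41. BST2, which tethers budding virus, lay lowest at -0.23.

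Lists with a median below that of all genes, -0.0058, included immature myeloid and sterol genes. Of all 12908 kept genes 6754 did not lie above 0. Of 13 measured immature myeloid and azurophil granule genes 12 lay below 0 and 2 were at least 0.322 lower, against 0.751% of all kept genes, and the median was -0.16. KIT, the stem cell factor receptor, read 8.47, 6.47, 7.23 and 6.15, and MYC, a growth-promoting transcription factor, read 10.49, 10.01, 9.05 and 9.69. KIT was thus lowest at 24 h and MYC at 12 h, and each differed by -0.32 at 24 h. Of 18 measured genes of sterol synthesis and uptake 16 lay below 0, 2 were at least 0.322 lower, and the median was -0.13. They were SREBF2, the transcription factor that drives the path, at -0.33 and MVD, a mevalonate enzyme, at -0.32. The 14 measured genes of a list of lipid genes and targets of LXR, the oxysterol receptor, had a median of -0.092 with none past 0.322, and the median was 0.038 without probe sets of the _x_at and _s_at kinds. Reference genes used to normalise expression, 11 of them measured, had a median of -0.053 and none past 0.322.

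**Figure D4:**
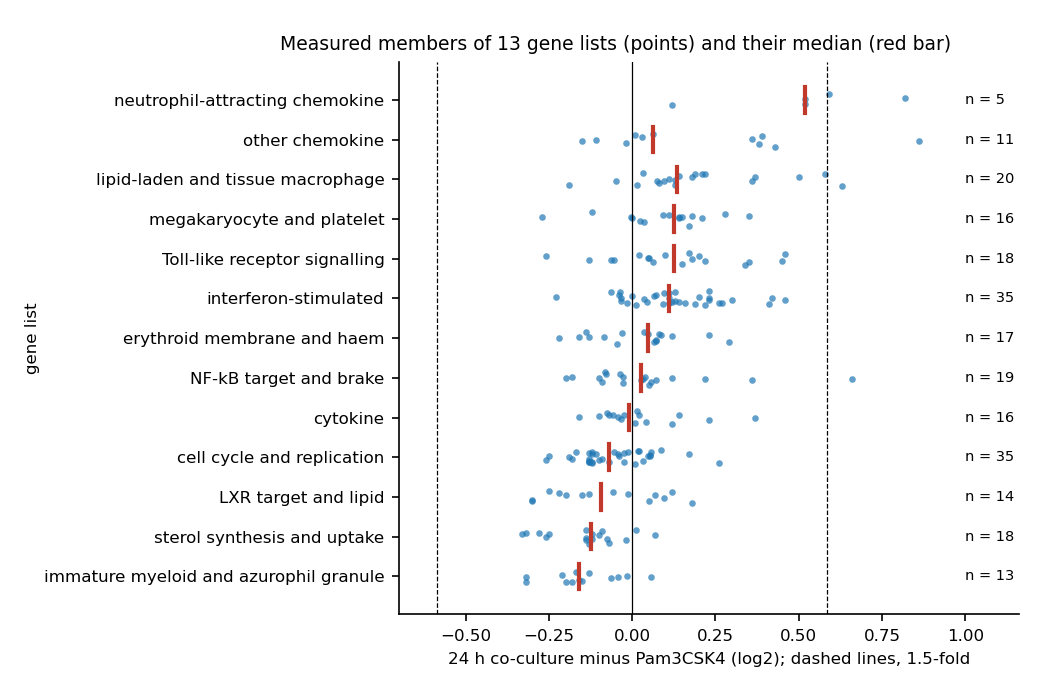
Difference between 24 h and Pam3CSK4 (log2, horizontal) of each measured member of 13 gene lists, 1 point a gene, with the list median as a red bar and 1.5-fold as dashed lines. The neutrophil-attracting chemokines have the highest median of these lists, 0.52, and the immature myeloid list the lowest, -0.16.

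Probe sets of 1 gene did not always give 1 answer. Over all 27781 probe sets at the filter level, 65 were at least 1.5-fold higher and 4 lower. Of the 65, 54 name 1 gene, 20 of them as its brightest probe set and 34 as a dimmer one, which belong to 32 genes. For 25 of these 32 genes the brightest probe set was under 0.322, and for 7 it was below 0. MZT1, a subunit of the microtubule-nucleating complex, differed by 1.30 on a dimmer probe set and by 0.0013 on its brightest, N4BP2L2 by 1.15 and -0.014, and ARGLU1, a splicing modulator, by 1.01 and -0.018. GPNMB differed by 0.93 and 0.50 and TLR4 by 0.76 and 0.46, so in these genes both lay above 0. The 4 lower probe sets name GANAB, FUT8, MTA2 and TBL1XR1, whose brightest probe sets differed by -0.38, 0.035, -0.63 and 0.052. These genes were taken up after their values were seen.

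**Figure D5:**
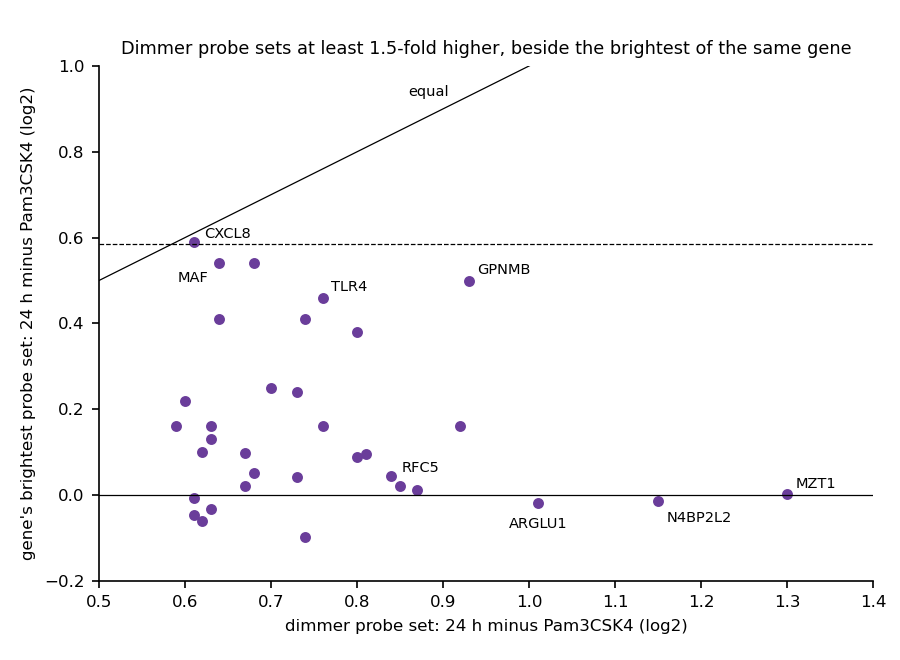
For probe sets at least 1.5-fold higher that are not the brightest of their gene, the difference of that probe set (log2, horizontal) against the difference of the gene's brightest probe set (log2, vertical), 1 point a probe set. All 34 points, chosen on the horizontal value, lie below the line of equal values, and many lie near 0 on the vertical axis, as for MZT1 at 1.30 and 0.0013.

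The label of the cells was checked with 10 markers of monocytic THP-1 cells, of which 8 are on the array. At 24 h 7 of these reached 6.19, led by LYZ, lysozyme, at 13.81, and MPO, myeloperoxidase, did not, at 5.53. No marker of megakaryocytes, red cell precursors, T, B or NK cells, neutrophils, endothelium, fibroblasts or epithelium differed by 1.5-fold. The 9 probe sets of bacterial RNA added as hybridisation controls were all higher at 24 h, by 0.015 to 0.12. The gap between the 3' and the 5' probe sets of GAPDH widens as RNA breaks down. It was 2.16 in resting cells, 0.59 with Pam3CSK4, 0.92 at 12 h and 0.70 at 24 h. For ACTB the gap was 3.41, 2.91, 3.17 and 2.90 in the same order. The control probe set for the middle of ACTB read 12.81, 13.56, 13.16 and 13.20, a difference of -0.36 between 24 h and Pam3CSK4. That for the middle of GAPDH differed by -0.13. The part of RNA quality in any difference was not tested.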

How the data were processed

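Total RNA of 4 THP-1 samples was hybridised to Affymetrix arrays. The deposited values are log2 expression values made by the authors with RMA in affy 1.28.1, per the submitters' processing notes, and lie between 2.54 and 15.22. RMA gives all arrays a common distribution, so a change in total RNA is not visible and low differences are compressed. A genome build for the arrays is not given in the labels.

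Groups came from the source labels. A platform annotation gave 41091 of 54675 probe sets 1 gene, 1801 several and 11721 no listed gene, and 62 are controls. Each gene took its brightest probe set by the mean of the 4 arrays, and was kept at a value of at least 6.19, the 50th percentile of all values, on either array. Ratios of 1.5-fold (0.585 log2), 2-fold and a smaller limit of 0.322 log2 were counted. The spread is the median absolute deviation scaled to a standard deviation. No test was made, there being 1 array a group.

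Members, 49 gene lists and alternatives were chosen with earlier results of these data known. Named genes were the 20 highest and 20 lowest whose other probe sets shared the sign, list members past 1.5-fold, up to 4 leading members a list, all globin probe sets, ACTB, GAPDH, TLR1, TLR2, TLR6 and markers. Alternatives were no filter, the 75th percentile filter, a filter on both arrays, the mean of probe sets, omission of _x_at and _s_at probe sets, cyclic loess (limma 3.58.1, R 4.3.3, 3 iterations) and other fold limits. Python 3.11.15, numpy 2.4.6, pandas 2.3.3 and matplotlib 3.10.9 were used. The counting was tested on simulated data.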

Additional observations from a re-analysis of the deposited data

Results flagged for a closer look

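TRPM1 was 0.77 higher than Pam3CSK4 at 24 h and lay at -1.18 at 12 h on the log2 scale, opposite directions with 1 array each. The difference was not tested, and the values share the Pam3CSK4 array.

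Probe sets with no gene in the annotation lay outside the gene comparison. The probe set 230413_s_at read 9.88, 10.48, 10.38 and 11.81 over resting, Pam3CSK4, 12 h and 24 h, a difference of 1.33. The probe set 230265_at read 8.64, 7.61, 8.11 and 8.75, a difference of 1.15.

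Genes under 6.19 on both arrays also lay outside it, and 3 of them were past 2-fold. CALB1, a calcium-binding protein of neurons, kidney and gut, differed by 1.69, at 3.87, 3.68, 6.59 and 5.37. TRDV3, a T cell receptor segment, differed by 1.20, at 3.99, 3.69, 4.92 and 4.89. PRR9, a proline-rich protein, differed by 1.12, at 4.61, 4.20, 5.38 and 5.32. All 3 were higher on both co-culture arrays than on the arrays without particles.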

How the results depend on the processing

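The 20 higher and 1 lower gene at 1.5-fold became 34 and 7 with no filter, 6 and 0 with the 75th percentile filter, 3 and 0 at 2-fold, and 256 and 97 at a limit of 0.322 log2. With the filter on both arrays the lower count was 0 and 15 genes were higher. With probe sets averaged per gene 11 were higher and 1 was lower, and of 13 of the 20 that could be compared 9 stayed past 1.5-fold, while APOC1 gave 0.55, CLIP4 0.39, CRIM1 0.32 and BOLA2 0.30. Cyclic loess gave 21 and 1, keeping all 20, and moved no shared globin probe set by more than the spread. The globin list median of 1.03 turned to -1.5e-05 with no filter and -0.078 with the mean of probe sets, since 6 members entered in the first case and HBE1 dropped under the filter in the second, leaving HBB. Without _x_at and _s_at probe sets 18 genes were higher and 1 lower. Of the 20, 12 were compared and stayed, while 8 had no probe set of another kind at the filter level (APOC1, BOLA2, CCND2, CDKN2A, CRIM1, CXCL8, ID1 and TMEM200B). A further 6 genes entered, and FUT8 took the place of MTA2. The shared HBG1 and HBG2 probe sets are all of the _x_at kind and have no value there. The medians of the erythroid lists, 0.047 and 0.023, were -0.013 and -0.053 with probe sets averaged, and the cytokine median of -0.0083 was 0.043. No paired analysis was possible because each group has 1 array, so no number links samples. Without replicates, values near or under 6.19 have no measured error.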

Other observations

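Past 1.5-fold among the 6867 genes under 6.19 on both arrays were 14 higher and 6 lower ones. Among them was HBBP1, a beta-like globin pseudogene, which differed by 0.65. Of the 20 higher genes, 11 had a higher value at 24 h than at 12 h and 9 a lower one.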
